A study of Mus musculus with 19 samples.

Results

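The subject is 10 genes of the neuronal cytoskeleton: the neurofilament genes Nefl, Nefm, Nefh and Ina, the microtubule genes Map2, Mapt, Map1b and Tubb3, and the growth-associated genes Stmn2 and Gap43. They were found by symbol among the 20655 gene IDs of the count table, all 10 were present, and all 10 passed the filter on low counts that left 18204 genes. The left hippocampi of 19 mice, each 4 months old, gave 1 bulk RNA-seq library each. All animals carried the 5xFAD transgenes in the hemizygous state (5xFADHEMI), which express mutant human amyloid precursor protein and presenilin under the neuronal Thy1 promoter and give amyloid plaques. Of these, 5 females and 5 males carried the transgenes alone and are called 5xFAD here. A further 4 females and 5 males were also homozygous for the knock-in named CLUh2kbKIHO at the clusterin gene, a secreted chaperone made mainly by astrocytes in brain, and are called knock-in here. The labels do not give the sequence that the knock-in changes, and mice without the 5xFAD transgenes are not analysed here. The comparisons ask whether the level of these genes differed with the knock-in, in each sex and between the sexes, in a hippocampus with amyloid.

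Neurofilaments are the intermediate filaments of mature neurons, copolymers that fill the axon and set its calibre. The light chain (Nefl) forms the core with the medium (Nefm) and heavy (Nefh) chains, and alpha-internexin (Ina) joins them in the central nervous system. Microtubules are built from tubulin dimers, of which class III beta-tubulin (Tubb3) is largely neuronal, and are bound by MAP2 in dendrites, by tau (Mapt) in axons and by MAP1B in growing and mature neurites. Stathmin-2 (Stmn2) binds tubulin dimers and GAP-43 sits in the membrane of growth cones and presynaptic terminals. In people, neurofilament light chain in cerebrospinal fluid and plasma serves as a marker of axon damage, and tau forms the tangles of Alzheimer's disease. RNA levels in tissue measure neither.

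The upstream sequences of Map2 and Map1b, a pair that moved together on both scalings of the data, are shown beside those of Ina and Tubb3. Ina and Tubb3 moved with Nefl, Nefm and Nefh by Pearson's r, but not all of these pairs passed by Spearman's rho. The sequences are the 250 bases before the start of each gene, 5′ to 3′ on the gene's own strand. They come from RefSeq on GRCm38.p6, whose table held 4 of the 10 genes. Capitals mark the GC box, GGGCGG, or its reverse complement CCGCCC. It occurs in 32.7% of the 32851 upstream windows of that table, so a match is common, and it is given as a description of the letters only.
Map2, chr1:66175079-66175328, plus strand: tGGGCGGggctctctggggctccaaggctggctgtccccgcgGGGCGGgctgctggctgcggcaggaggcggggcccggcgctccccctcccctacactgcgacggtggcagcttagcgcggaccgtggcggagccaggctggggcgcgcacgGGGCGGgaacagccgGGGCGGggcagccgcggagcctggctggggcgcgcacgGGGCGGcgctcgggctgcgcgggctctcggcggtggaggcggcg
Map1b, chr13:99516603-99516852, minus strand: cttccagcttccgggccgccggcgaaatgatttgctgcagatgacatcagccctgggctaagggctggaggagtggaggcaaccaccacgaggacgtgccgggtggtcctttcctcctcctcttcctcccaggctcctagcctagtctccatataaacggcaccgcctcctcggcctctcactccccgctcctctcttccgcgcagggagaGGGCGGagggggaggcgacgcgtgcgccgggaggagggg
Ina, chr19:47014431-47014680, plus strand: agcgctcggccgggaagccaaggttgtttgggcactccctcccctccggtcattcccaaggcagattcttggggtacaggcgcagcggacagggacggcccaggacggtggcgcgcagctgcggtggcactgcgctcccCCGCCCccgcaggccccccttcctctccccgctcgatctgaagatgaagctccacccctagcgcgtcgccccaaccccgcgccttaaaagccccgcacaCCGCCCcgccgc
Tubb3, chr8:123411303-123411552, plus strand: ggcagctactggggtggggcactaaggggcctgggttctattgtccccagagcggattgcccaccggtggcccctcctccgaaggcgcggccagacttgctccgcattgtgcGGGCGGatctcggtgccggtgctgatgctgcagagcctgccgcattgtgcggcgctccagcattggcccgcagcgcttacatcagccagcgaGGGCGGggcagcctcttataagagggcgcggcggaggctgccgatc
The Map2 window held 5 GC boxes and was 81.2% G and C, the Ina window 2 and 70.8%, the Tubb3 window 2 and 68.0%, and the Map1b window 1 and 66.4%. The median over all windows was 52.4% G and C. All 4 windows were thus richer in G and C than the typical window, and the pair Map2 and Map1b did not stand together by the number of boxes.

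Depth was 17.28 to 25.2 M counts per library (M, mega), and the 10 genes held 926 to 21483 counts each in a library, so counting error was small beside the spread between animals. The 8 markers of the hippocampus (such as Prox1 of dentate granule cells and Wfs1 and Fibcd1 of CA1 neurons) were all detected in every library, with medians of 88.0 CPM for Prox1, 169 for Wfs1 and 143 for Fibcd1, where CPM is a count scaled to the size of the library. Libraries differed in a list of 8 nuclear noncoding RNAs, whose mean log2 CPM was 8.21 ± 0.17 in 5xFAD females (SD, n = 5), 7.67 ± 0.74 in 5xFAD males (SD, n = 5), 6.53 ± 0.43 in knock-in females (SD, n = 4) and 7.81 ± 0.53 in knock-in males (SD, n = 5). Summed markers of the choroid plexus, a tissue of the adjoining ventricle, ran from 239 to 16000 CPM over libraries. The 2 genotypes came with separate ranges of animal and library numbers and no batch label, so genotype and any batch that followed it cannot be told apart. In bulk tissue, fewer neurons and less RNA per neuron cannot be told apart either. The text names single animals by the number in their label.

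All 10 genes were abundant. Levels between genes are compared as CPM per kilobase of the longest coding transcript in GENCODE M21. On that scale Nefl stood at 149 ± 17.2 over 19 libraries (SD), Map2 at 148 ± 18.9 and Stmn2 at 146 ± 20.3. These 3 levels did not differ beyond their spread, and Nefl lay above Map2 in 9 of 19 libraries. Tubb3 followed at 122 ± 19.9, Gap43 at 103 ± 21.6, Mapt at 79.7 ± 8.16 and Map1b at 76.8 ± 10.5. The order of Mapt and Map1b held in only 12 of 19 libraries, less than their spread. Ina stood at 65.3 ± 6.83, Nefm at 50.4 ± 9.52 and Nefh at 18.7 ± 2.62, and each of these 3 ranked below the one before it in at least 15 of 19 libraries (Ina above Nefm, and Nefm above Nefh, in 19 of 19). The light chain was thus the most abundant neurofilament transcript and the heavy chain the least in every library. The length chosen matters for the genes with several transcripts. Map2 has 24 annotated transcripts and falls from place 2 to place 6 when all its exons are counted (56.2 CPM per kilobase), and Stmn2 falls from place 3 to place 8 (53.9). Nefl was at place 1, Nefm at place 9 and Nefh at place 10 with either length. Counts per gene do not resolve the isoforms of Map2 or of Mapt, which has 12 annotated transcripts.

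**Figure D1:**
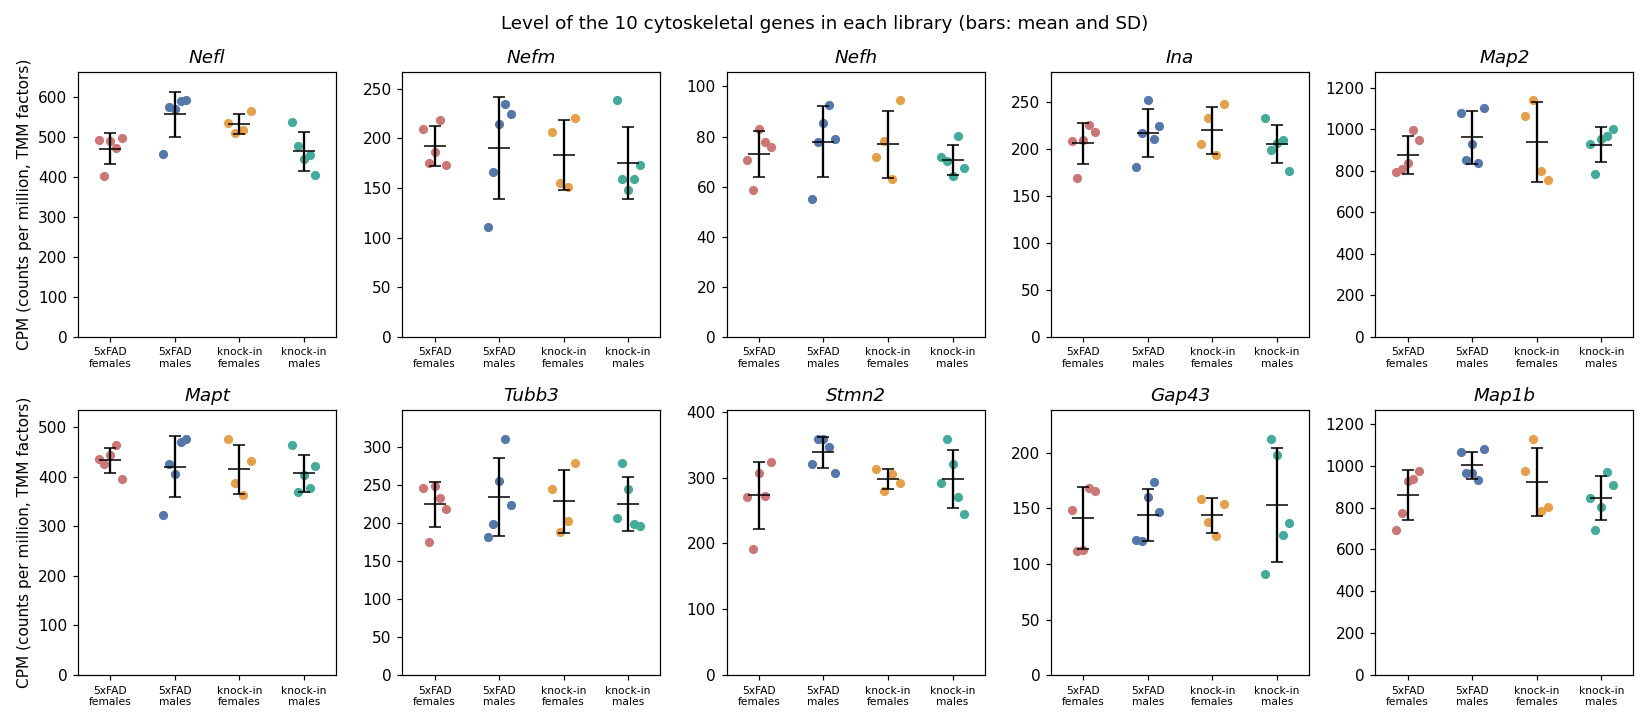
Level of each of the 10 genes, in CPM with TMM factors (edgeR's scaling between libraries), in every library of the 4 groups. Points are libraries in the order of their numbers, and bars give the mean and SD. The 4 knock-in females lie above all 5 5xFAD females for Nefl, and the groups overlap for the other 9 genes within each sex.

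Over both sexes, none of the 10 genes differed between knock-in and 5xFAD animals past the threshold. edgeR called 0 of 10 at an adjusted p of 0.05, as did DESeq2 and limma-voom, and 0 of 10 had an unadjusted p under 0.05, against 11.9% of all tested genes. The background was low: 0.022% of all tested genes (4 of 18204) were called. Of the 10 log2 changes, 2 lay above 0 and 8 below, with a median of -0.04 against 0.00 over all tested genes. They ran from -0.09 for Nefm to 0.05 for Gap43. The 95% intervals of all 10 lay between a fold of 0.785 and 1.26.

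Nefl, the filament core, gave the lowest p of the 10 genes for a difference between the sexes in the effect of the knock-in. In 5xFAD females it stood at 493, 403, 490, 472 and 498 CPM, a mean of 471 ± 39.2 (SD, n = 5). In knock-in females it stood at 535, 511, 517 and 566 CPM, a mean of 532 ± 24.9 (SD, n = 4). All 4 knock-in females lay above all 5 5xFAD females. Such a separation was common in this comparison, at 12.9% of all tested genes, and 1 of the 10 genes showed it. In males the order was the opposite. 5xFAD males stood at 457, 575, 571, 590 and 592 CPM, a mean of 557 ± 56.5 (SD, n = 5). Knock-in males stood at 539, 478, 444, 456 and 406 CPM, a mean of 465 ± 49.1 (SD, n = 5). The male groups overlapped through 5xFAD male 6, the low animal of its group, and knock-in male 6, the high animal of its group. Among males 0 of the 10 genes separated the genotypes, against 1.02% of all tested genes.

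The log2 change of Nefl with the knock-in was 0.18 in females (SE 0.10, edgeR adjusted p = 0.305) and -0.26 in males (SE 0.09, edgeR adjusted p = 0.702, unadjusted p = 0.0104). The female change was 0.05 with the noncoding RNA level as a covariate and 0.11 without 5xFAD female 2. The difference between these changes, the genotype by sex interaction, was 0.44 (SE 0.14, 95% interval 0.16 to 0.72). It had the lowest p of the 10 genes (unadjusted p = 0.00394) and did not pass after adjustment over all genes (edgeR adjusted p = 0.106). DESeq2 called it, with a log2 difference of 0.46 and an adjusted p of 0.0244. Within 5xFAD, Nefl was lower in females by the point estimate (-0.24, SE 0.09, edgeR adjusted p = 0.373), and within the knock-in it was higher in females (0.20, SE 0.10, edgeR adjusted p = 0.373). The noncoding RNA level moved with the same groups, and with that level as a covariate the Nefl interaction was 0.30 (edgeR adjusted p = 0.992). Without 5xFAD male 6 it was 0.50 (edgeR adjusted p = 0.0509). The part of the noncoding level in the difference was not tested beyond that fit.

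The other neurofilament genes did not show the male and female changes of Nefl beyond their spread. Nefm stood at 193 ± 20.4 CPM in 5xFAD females (SD, n = 5), 190 ± 51.5 in 5xFAD males (SD, n = 5), 183 ± 35.2 in knock-in females (SD, n = 4) and 176 ± 36.2 in knock-in males (SD, n = 5). Its range over single libraries was from 111 CPM in 5xFAD male 6 to 238 in knock-in male 6, and its interaction was 0.04 (SE 0.25, edgeR adjusted p = 0.952). Nefh stood at 73.1 ± 9.19, 78.0 ± 14.1, 76.8 ± 13.3 and 70.7 ± 6.04 CPM in the same order of groups, with an interaction of 0.21 (SE 0.19, edgeR adjusted p = 0.594). Ina stood at 206 ± 22.0, 217 ± 25.4, 220 ± 25.0 and 205 ± 20.2 CPM, with an interaction of 0.18 (SE 0.15, edgeR adjusted p = 0.586). For Nefh and Ina the group means had the same order by genotype within each sex as for Nefl, at differences within the spread between animals.

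Neurofilament subunits assemble together, so their ratios within a library were compared, which do not depend on a scaling factor shared by all genes of a library. The log2 ratio of Nefm to Nefl counts was -1.29 ± 0.163 in 5xFAD females (SD, n = 5), -1.59 ± 0.308 in 5xFAD males (SD, n = 5), -1.56 ± 0.219 in knock-in females (SD, n = 4) and -1.42 ± 0.201 in knock-in males (SD, n = 5). The genotype difference averaged over the sexes was -0.04 (exact permutation within sex, two-sided p = 0.704, adjusted p = 0.872 over 4 ratios), from -0.27 in females and 0.18 in males. The ratio of Nefh to Nefl differed by 0.01 (exact p = 0.872, adjusted p = 0.872) and that of Ina to Nefl by 0.05 (exact p = 0.416, adjusted p = 0.833), from -0.09 in females and 0.18 in males. The ratio of Map1b to Map2 differed by -0.10 (exact p = 0.0974, adjusted p = 0.39), from 0.02 in females and -0.21 in males. In males this ratio was 0.07 ± 0.099 in 5xFAD and -0.14 ± 0.089 in knock-in (SD, n = 5 each). None of the 4 ratios passed averaged over the sexes, and differences within a sex were not tested. Nefl and Nefm lie side by side on chromosome 14 and share 1108 annotated exonic bases on opposite strands, and Ina shares 456 with Nt5c2. Whether counting used the strand is not given in the sources used here, so some reads of these genes may count for their neighbour.

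Of the genes that bind microtubules, Map1b, which is highest in growing axons, had the clearest difference among males. 5xFAD males stood at 1064, 965, 967, 931 and 1079 CPM, and knock-in males at 847, 692, 804, 969 and 906. All 5 5xFAD males lay above 4 of the 5 knock-in males, and knock-in male 9 overlapped them. The means were 1001 ± 65.7 and 844 ± 105 (SD, n = 5 each), and the log2 change was -0.25 with an SE of 0.12 (edgeR unadjusted p = 0.0497, adjusted p = 0.751). In females the means were 860 ± 121 CPM in 5xFAD (SD, n = 5) and 923 ± 163 in knock-in (SD, n = 4), which differed by 0.10 on the log2 scale with an SE of 0.13 (edgeR adjusted p = 0.686). The interaction for Map1b was 0.35 (SE 0.17, edgeR adjusted p = 0.298), and 0.21 to 0.40 under other settings.

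Map2, the dendritic partner, stood at 877 ± 90.8 CPM in 5xFAD females (SD, n = 5), 960 ± 126 in 5xFAD males (SD, n = 5), 939 ± 191 in knock-in females (SD, n = 4) and 926 ± 84.8 in knock-in males (SD, n = 5). The knock-in females spanned the whole range of the study, from 753 CPM in female 5 to 1139 in female 2, the lowest and the highest of all 19 libraries. Mapt, which encodes tau, stood at 433 ± 25.5, 420 ± 62.0, 414 ± 50.1 and 407 ± 37.9 CPM in the same order of groups. Its log2 change over both sexes was -0.05 (95% interval -0.21 to 0.10, edgeR adjusted p = 0.834), and its interaction was -0.02 (edgeR adjusted p = 0.969). Tubb3 stood at 225 ± 30.0, 234 ± 51.5, 229 ± 41.4 and 225 ± 35.9 CPM in that order, with a log2 change over both sexes of -0.02 (95% interval -0.23 to 0.20, edgeR adjusted p = 0.969). For these 3 genes every pair of groups overlapped. Tubb3 belongs to a family of similar tubulin genes, among which reads can be split by the counting, which was not measured here.

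Stmn2 differed most between the sexes of the 5xFAD animals. 5xFAD females stood at 271, 192, 307, 272 and 324 CPM and 5xFAD males at 321, 359, 358, 347 and 308. The means were 273 ± 50.7 and 338 ± 23.1 (SD, n = 5 each). Female 5 overlapped the males, and the other 4 females lay below all 5 males. The log2 difference, female minus male, was -0.31 (SE 0.12, unadjusted p = 0.0165, edgeR adjusted p = 0.373). Knock-in females and males had nearly equal means of 298 ± 15.1 (SD, n = 4) and 298 ± 44.4 CPM (SD, n = 5), a difference of 0.00 (95% interval -0.26 to 0.26, edgeR adjusted p = 0.999). The interaction for Stmn2 was 0.31 (SE 0.17, edgeR adjusted p = 0.366), and 0.13 to 0.39 under other settings. Gap43, the other growth-associated gene, stood at 141 ± 27.7 CPM in 5xFAD females (SD, n = 5), 144 ± 23.5 in 5xFAD males (SD, n = 5), 144 ± 15.6 in knock-in females (SD, n = 4) and 153 ± 51.2 in knock-in males (SD, n = 5). It varied most among knock-in males, from 90.6 CPM in male 6 to 213 in male 7, and both extremes of all 19 libraries lay in that group.

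**Figure D2:**
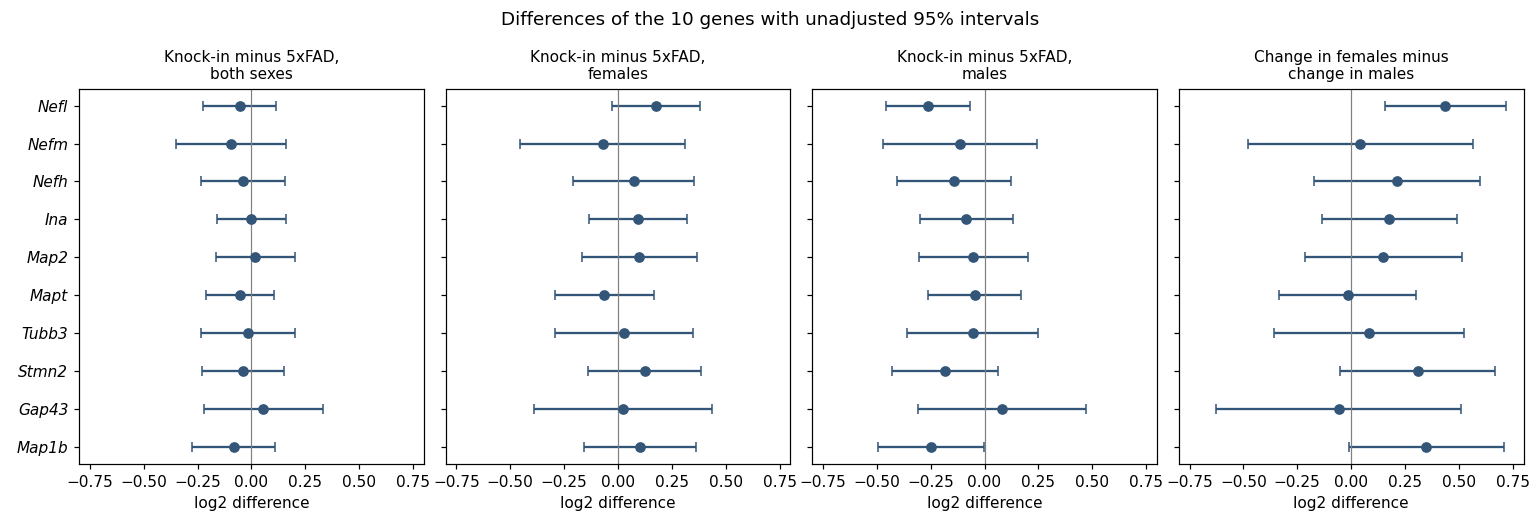
Log2 differences of the 10 genes from edgeR with unadjusted 95% intervals: knock-in minus 5xFAD over both sexes, in females and in males, and the change in females minus that in males. The intervals of 9 genes include 0 in the panel of the interaction, and that of Nefl runs from 0.16 to 0.72.

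The point estimates of most of the 10 genes had opposite signs in females and in males. In females edgeR called 0 of 10 for genotype, with 0 at an unadjusted p under 0.05, although 5.56% of all tested genes were called there and 22.1% had an unadjusted p under 0.05; DESeq2 and limma-voom also called 0. Of the 10 log2 changes in females 8 lay above 0, with a median of 0.08 against 0.01 over all genes. In males edgeR called 0 of 10, with 2 (Nefl and Map1b) at an unadjusted p under 0.05, against 0.0% of all tested genes called and 6.52% at an unadjusted p under 0.05, and DESeq2 and limma-voom called 0 of 10. There 9 of 10 lay below 0, with a median of -0.10 against 0.01 over all genes. For the interaction edgeR and limma-voom called 0 of 10 and DESeq2 1 (Nefl), with 1 at an unadjusted p under 0.05 in edgeR, against 0.308% of all tested genes called by edgeR and 17.7% at an unadjusted p under 0.05, so 1 of 10 is not above the background. The median there was 0.16 against -0.02 over all genes, with 8 of 10 above 0. These values rest on the same animals and the 10 genes vary together, so the direction of 8 or 9 genes is not that many separate results.

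Sex differences of the 10 genes did not pass either. Within 5xFAD edgeR, DESeq2 and limma-voom called 0 of 10, with 2 (Nefl and Stmn2) at an unadjusted p under 0.05 in edgeR, against 0.0385% of all tested genes called and 11.1% at an unadjusted p under 0.05. Of the log2 differences, female minus male, 8 of 10 lay below 0, with a median of -0.08. Within the knock-in these tools called 0 of 10, with 0 at an unadjusted p under 0.05 in edgeR, against 0.0494% of all tested genes called and 14.4% at an unadjusted p under 0.05. There 8 of 10 lay above 0, with a median of 0.04.

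On TMM-scaled counts the lowest values were concentrated in 2 libraries, while the 10 highest were spread over 8. 5xFAD female 2 had the lowest level of all 19 libraries for 4 of the 10 genes (Nefl at 403 CPM, Ina at 169, Tubb3 at 176 and Stmn2 at 192). The same library had the lowest sum of 12 pan-neuronal markers (such as Rbfox3, Syn1 and Snap25), at 7395 CPM against up to 10040 in other libraries, and a high sum of choroid plexus markers, at 7188 CPM (rank 18 of 19 from the lowest). 5xFAD male 6 had the lowest level for 3 other genes (Nefm at 111 CPM, Nefh at 55.2 and Mapt at 323). Its pan-neuronal sum of 8701 CPM had rank 4 from the lowest. Both libraries are 5xFAD, and together they held 7 of the 10 lowest values on TMM-scaled counts. On the normalized values that the authors deposited, male 6 was lowest for Nefm only (2499). There its Nefh of 1311 lay above the 982 of 5xFAD female 2, and its Mapt of 7874 above the 7178 of knock-in male 7. The parts of scaling and of tissue composition in the lowest values were not tested.

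The way the 10 genes varied between animals was read after removing the 4 group means, over 19 libraries and 45 pairs of genes. The p values came from permutations over all 19 libraries, which took no account of the 4 means removed, so they are somewhat too low. Pairs near the threshold, such as Nefl with Stmn2 (permutation adjusted p = 0.0456 for r), may therefore not pass, and counts of passing pairs may be too high. Pearson's r was above 0 in 33 of 45 pairs and passed after Benjamini-Hochberg adjustment in 15 (100000 permutations). In 6 of these Spearman's rho passed as well. These 6 were Nefm with Mapt, Map2 with Map1b, Nefl with Nefm, Nefl with Nefh, Nefh with Ina, and Tubb3 with Gap43. Map2 and Map1b had r = 0.85 (rho = 0.80, permutation adjusted p = 0.00045 for r and 0.00292 for rho), and 0.81 without the 2 libraries farthest from the median. Nefl and Nefm had r = 0.73 (rho = 0.70, permutation adjusted p = 0.00342 and 0.0132), and 0.60 without 2 libraries. Nefl and Nefh had r = 0.71 (rho = 0.62, permutation adjusted p = 0.00615 and 0.0436), and 0.41 without 2 libraries. Nefh and Ina had r = 0.76 (rho = 0.71, permutation adjusted p = 0.00202 and 0.0132), and 0.59 without 2 libraries. Tubb3 and Gap43 had r = 0.66 (rho = 0.66, permutation adjusted p = 0.0125 and 0.0247), and 0.56 without 2 libraries. Other neurofilament pairs passed on r alone. Nefl and Ina had r = 0.78 (rho = 0.56, permutation adjusted p = 0.00202 and 0.0679), and 0.60 without 2 libraries. Map2 ran against Tubb3 by the point estimate (r = -0.44). All genes of a library share its scaling, depth and tissue makeup. Nefl and Nefm also share 1108 annotated exonic bases on opposite strands, so some reads of one may count for the other.

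The pair with the highest r on TMM-scaled counts, Nefm and Mapt, depended on the scaling. Its r was 0.88 on TMM-scaled counts (rho = 0.80, permutation adjusted p = 0.00045 and 0.00292; 0.78 without 2 libraries) and 0.40 on the normalized values that the authors deposited (permutation adjusted p = 0.197). On the latter values Map2 and Map1b kept r = 0.80 and Nefl and Nefm had r = 0.81. Of the 15 pairs past the threshold by r on TMM-scaled counts, 13 passed by r on the authors' normalized values as well. By rho, some pairs that had passed on both measures did not pass there. These were Nefl with Nefh (permutation adjusted p = 0.138), Tubb3 with Gap43 (0.0728) and Nefm with Mapt (0.362).

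**Figure D3:**
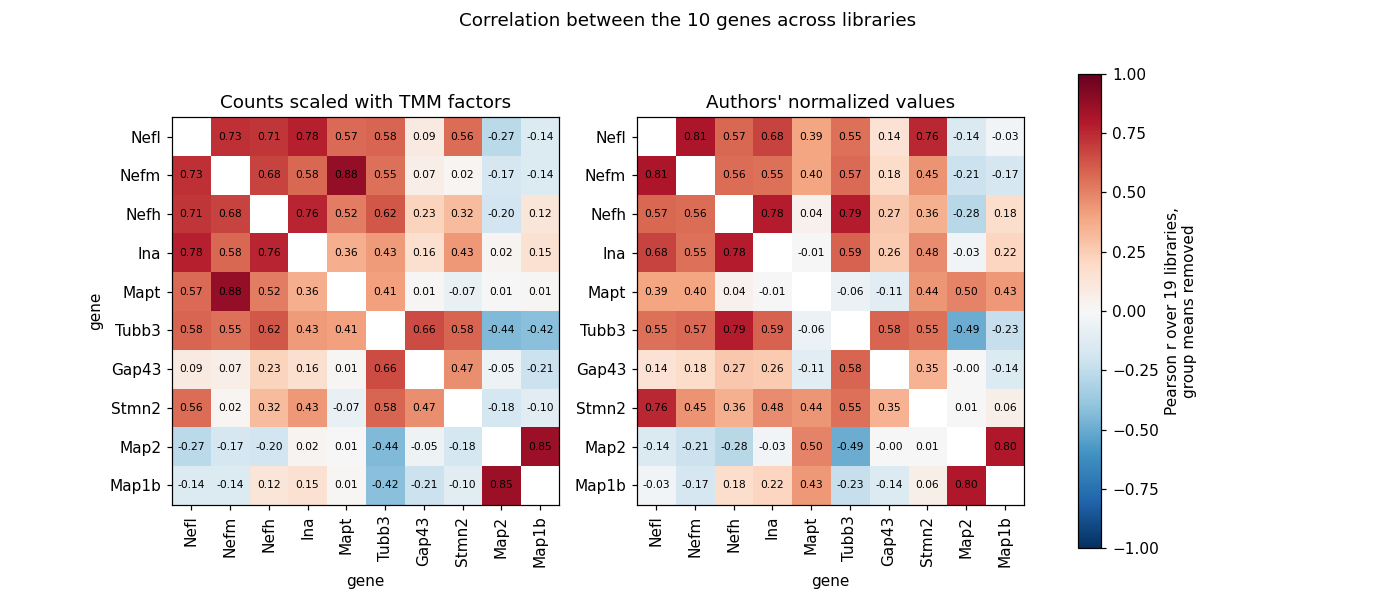
Pearson r between each pair of the 10 genes over 19 libraries with the 4 group means removed, on TMM-scaled counts (left) and on the authors' normalized values (right). The 4 neurofilament genes have r from 0.58 to 0.78 with each other on TMM-scaled counts, Map2 and Map1b form a pair at 0.85 and 0.80, and Nefm with Mapt falls from 0.88 to 0.40.

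The difference between the scalings ran with base composition across genes, to a degree that varied by library. The part of base composition in the Nefm and Mapt pair was not tested. The authors' factor for a gene in a library, taken as log2 of normalized over raw count minus the library's median, differed from gene to gene. Across 10712 genes it fell with the GC content of the transcript in 7 libraries (r = -0.711 to -0.428) and rose with it in the other 12 (r = 0.162 to 0.684), where genes are not independent replicates. The 7 libraries were 3 of 5 5xFAD females, 1 of 5 5xFAD males, 1 of 4 knock-in females and 2 of 5 knock-in males. Neurofilament transcripts are rich in G and C: Nefh at 58.4%, Nefm at 57.8% and Ina at 55.5%, beside Tubb3 at 57.9%, Mapt at 52.5% and a median of 49.6% over tested genes. Nefl, at 48.8%, is the exception among the neurofilament genes.

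The 2 sets of libraries were defined by the relation of these same factors to GC content. A split of genes rich in G and C between the sets is thus in part built in. The Nefh factor was -0.25 to -0.17 in the 7 libraries and 0.02 to 0.26 in the other 12, with no overlap. The Nefm factor was -0.20 to -0.16 and 0.06 to 0.19, and the Tubb3 factor -0.23 to -0.13 and 0.04 to 0.20. The Mapt factor overlapped between the sets, at -0.18 to 0.03 and -0.08 to 0.30. Nefl moved by no more than 0.05 in any library, so its levels hardly depend on this scaling. With the authors' factors the within-group SD of log2 Mapt fell from 0.162 to 0.099, and 0.703% of genes then varied less. That of Nefm fell from 0.308 to 0.252, while that of Nefh rose from 0.217 to 0.283 and that of Tubb3 from 0.251 to 0.317. Mapt was the gene of the 10 whose TMM-scaled level ran against its own factor past the threshold, over 19 libraries with group means kept. Its r was -0.70 and its rho -0.63 (permutation adjusted p = 0.0097 and 0.0476 over 10 genes), and r was -0.57 without 2 libraries. A fall in SD under the factors goes with such a negative r, so this is not a result separate from the SD of Mapt.

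Within the 7 libraries and within the 12, r lay above 0 in both sets for all 15 pairs that passed on TMM-scaled counts. Map2 and Map1b had r = 0.92 over the 7 libraries and 0.88 over the 12. Nefl and Nefm had 0.95 and 0.85, Nefh and Ina 0.86 and 0.78, and Nefm and Mapt 0.82 and 0.85. Pairs of Map2 with other genes did not keep their sign: Map2 and Mapt had 0.71 over the 7 libraries and -0.48 over the 12, Nefm and Map2 0.34 and -0.56, and Map2 and Tubb3 0.31 and -0.63. A term for the 2 sets left 0 of 10 genes called by edgeR in all 6 comparisons, with a Nefl interaction of 0.44 (edgeR adjusted p = 0.149).

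**Figure D4:**
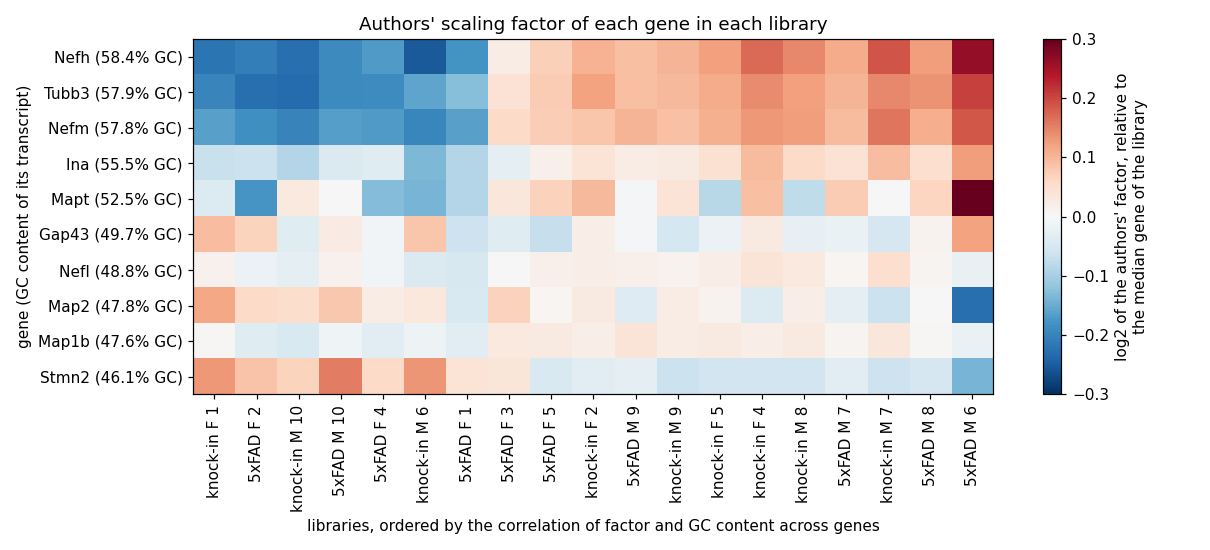
Log2 of the authors' scaling factor for each of the 10 genes (rows, ordered by GC content) in each library (columns, ordered by the correlation of factor and GC content across genes; F and M mark females and males). The 3 genes richest in G and C are low in the 7 libraries on the left and high in the other 12, while Nefl stays within 0.05 of 0.

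Against the noncoding RNA level, 0 of 10 genes correlated past the threshold over 19 libraries after adjustment over the 10. Nefl came closest (r = -0.45, rho = -0.52, permutation adjusted p = 0.539 and 0.246; r = -0.53 without the 2 libraries farthest from the median). With group means removed its r was -0.32 (permutation adjusted p = 0.902).

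The genes most like each of the 10 were found by the r of log2 CPM over 19 libraries with group means removed, among 12857 tested genes, as a description. For Map2 these were Unc80, a subunit of the sodium leak channel complex (r = 0.94), the anchoring protein gene Akap6 (0.94) and Dlg2, a postsynaptic scaffold (0.92). For Map1b the top gene was the nuclear receptor coactivator Ncoa2 (0.93), and for Nefl the postsynaptic scaffold gene Dlgap3 (0.90, and 0.56 on the authors' normalized values). For Ina it was Lingo1, a neuronal membrane protein (0.92), and for Tubb3 Rangap1, a regulator of nuclear transport (0.93). For Nefm it was Klc2, a kinesin light chain, at 0.94 on TMM-scaled counts and 0.31 on the authors' normalized values. The Klc2 transcript is 60.4% G and C. Mapt was closest to Apba2 and Gripap1, at 0.93 each. On the authors' normalized values its r was 0.795 with Apba2 and 0.0775 with Gripap1. Nefh was closest to the protease gene Capn1 (0.86, and 0.56 on the authors' normalized values), Gap43 to Zwint (0.93) and Stmn2 to Glrx (0.92).

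Other genes of the cytoskeleton were read from lists, none of which had a call over both sexes in edgeR. Of 10 other intermediate filaments edgeR called 0 there, with 3 at an unadjusted p under 0.05, and DESeq2 called 1 and limma-voom 0. Gfap, the filament of astrocytes, had a log2 change of 0.53 over both sexes (SE 0.10, edgeR adjusted p = 0.0684). In females Gfap rose from 901 ± 117 CPM in 5xFAD (SD, n = 5) to 1352 ± 190 in knock-in (SD, n = 4), by 0.59 on the log2 scale with an SE of 0.15 (edgeR adjusted p = 0.0265), and it was 1 of 10 in its list to pass, where 5.56% of all tested genes did. Beside it, edgeR called 2 of 10 astrocyte markers in females, against 5.56% of all tested genes. These were the water channel gene Aqp4 and the connexin gene Gjb6, both higher. Of the same 10 markers DESeq2 called 5 in females and limma-voom 0. The summed level of the 10 astrocyte markers was 3941 to 4458 CPM in 5xFAD females and 4666 to 5681 in knock-in females. Its part in the Gfap value was not tested, nor was the difference between Gfap and the neuronal filament genes.

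Of 23 other microtubule binding proteins, 3 passed in females, where 5.56% of all tested genes did. Dcx, the doublecortin of immature neurons, fell from 22.2 ± 2.88 CPM (SD, n = 5) to 11.6 ± 2.70 (SD, n = 4), with a log2 value of -0.93 (SE 0.25, edgeR adjusted p = 0.0361). Dpysl4, a collapsin response mediator, fell by 0.66 on the log2 scale (edgeR adjusted p = 0.0143), and Mapre1, which tracks growing microtubule ends, rose by 0.25 (edgeR adjusted p = 0.0465). The list's median in females was -0.02 against 0.01 over all genes. A list of 8 immature neuron markers, which also holds Dcx, had 6 of 8 above 0 in females and a median of 0.18, so Dcx ran against most of it. Of 15 transport motors, Kif5b, a kinesin heavy chain, passed in females with a rise of 0.35 on the log2 scale (edgeR adjusted p = 0.037), at a list median of 0.01. Of 14 enzymes of tubulin folding and modification, Tbce, a tubulin folding cofactor, passed in females, where it fell by 0.72 on the log2 scale (edgeR adjusted p = 0.0296), also at a list median of 0.01. The 1 call of 15 and the 1 of 14 are near the share over all genes. The calls in females stood beside the low noncoding level of knock-in females, which did not overlap that of 5xFAD females. With that level as a covariate, hardly separable from genotype there, edgeR called 0 of all tested genes in females. It also called 0 of all tested genes there without knock-in female 2 and 0 without knock-in female 4, so none of these calls, Gfap and the astrocyte markers included, passed without either animal.

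The 12 other neuronal tubulins had 0 calls in edgeR, DESeq2 and limma-voom in all 6 comparisons, with 0 to 2 at an unadjusted p under 0.05 in edgeR. Their median log2 change was 0.19 in females, with 10 of 12 above 0, and -0.08 in males, with 10 of 12 below 0. The interaction was above 0 for 12 of 12, with a median of 0.28 against -0.02 over all genes. Signs by sex were those of Nefl. Tubulins can share reads among paralogs, which was not measured here. The lowest p over both sexes in this list belonged to Tubb2b, with a log2 change of 0.15 (edgeR adjusted p = 0.472), and Tubb4b, with 0.11 (adjusted p = 0.631).

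Lists tied to tau, axon structure and growth were also without calls in edgeR. The 22 tau kinases and phosphatases had 0 calls in edgeR, DESeq2 and limma-voom in all 6 comparisons, with 0 to 6 at an unadjusted p under 0.05 in edgeR and medians of 0.05 in females and -0.06 in males. Mark1, a kinase of tau, had a log2 change of -0.16 over both sexes (edgeR adjusted p = 0.405), and the kinase gene Fyn 0.10 (adjusted p = 0.602). The 14 genes of the axon initial segment and spectrin had 0 calls in edgeR and limma-voom, with 0 or 1 at an unadjusted p under 0.05, and DESeq2 called 1 in females and 1 for the interaction. Scn2a, a sodium channel, stood at -0.17 over both sexes (edgeR adjusted p = 0.46). The 12 tested of 13 other stathmins and growth cone proteins had 0 calls in edgeR and limma-voom, with 0 to 3 at an unadjusted p under 0.05, and DESeq2 called 1 in females and 1 for the interaction. Marcks, a membrane protein of growth cones, stood at 0.22 over both sexes (edgeR adjusted p = 0.504).

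General neuronal markers were read beside the 10 genes. The 12 pan-neuronal markers had 0 calls in edgeR, DESeq2 and limma-voom in all 6 comparisons, with 0 to 3 at an unadjusted p under 0.05 in edgeR and medians of 0.05 in females and -0.06 in males. Thy1, whose promoter drives the transgenes, had a log2 change of 0.28 over both sexes (edgeR adjusted p = 0.292) and Syt1, a synaptic vesicle protein, -0.15 (adjusted p = 0.456). Their summed level was 7395 to 9311 CPM in 5xFAD females, 8701 to 10040 in 5xFAD males, 9101 to 9408 in knock-in females and 7888 to 9719 in knock-in males. Markers of thalamus and midbrain, which also hold neurofilament-rich neurons, had 0 of 10 calls in edgeR, DESeq2 and limma-voom in all 6 comparisons, with 0 to 2 at an unadjusted p under 0.05 in edgeR. The interaction lay above 0 for 10 of 10, with a median of 0.66. Their summed level was 117 to 229 CPM in 5xFAD females, 128 to 264 in 5xFAD males, 130 to 281 in knock-in females and 120 to 136 in knock-in males. Their part in the Nefl values was not tested.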

How the data were processed

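All tests used the deposited table of estimated counts, which the authors gave as whole numbers per gene. Normalized counts, a signal the authors deposited after scaling by gene- and library-specific factors, served as an alternative. The deposited variance-stabilized values were not used. Tools named in the submitters' processing notes are Salmon, FastQC, DESeq2 and Seurat, with no versions, and the genome build is mm39. GENCODE M21 on GRCm38 gave symbols for 20023 of 20655 IDs (96.9%), lengths and GC content, and RefSeq on GRCm38.p6 the upstream sequences, since no coordinates of the authors' build were used. Depth was 17.28 to 25.2 M counts per library.

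The main test was that of edgeR 4.0.16 under R 4.3.3 (TMM factors, filterByExpr with a minimum of 10 counts, robust quasi-likelihood F-test), with Benjamini-Hochberg adjustment over 18204 genes and a threshold of 0.05. The genotype effect used sex as a covariate. The 5 other comparisons came from a model with 4 group means. Ratios used counts plus 0.5 and all 31752 permutations of genotype within sex. Log2 CPM had a prior count of 2. The authors' factors were read over the 10765 genes with more than 100 counts in all libraries. The scripts were tested on simulated data.

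Alternatives were DESeq2 1.42.0, limma-voom (limma 3.58.1), DESeq2's size factors, library size only, the authors' scaling as offsets, a filter of 1 CPM in at least 4 libraries, no filter on low counts, the noncoding level as a covariate, a replicate block, only the groups compared, and leaving out each library. The term for the sign of the relation of GC content to the authors' factor, and the spread under those factors, were added after seeing the data. All 10 genes are named in every comparison. Of other lists, the genes past the threshold (at most 5) or, with none, the 2 with the lowest p over both sexes are named. A gene that this rule names is left out of the text. The genes and lists were chosen with earlier results of these data known. Labels do not say that libraries came from separate litters, so p values measure the spread between animals.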

Additional observations from a re-analysis of the deposited data

Results flagged for a closer look

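Of 56 groups of libraries tested over the 10 genes and the 4 ratios, 3 held a library far from the others of its group, and chance alone flags about 1 in 20. Nefl in 5xFAD female 2 stood at 403 CPM, where the other 4 females lay between 472 and 498. Nefl in 5xFAD male 6 stood at 457 CPM, where the other 4 males lay between 571 and 592. Nefm in knock-in male 6 stood at 238 CPM, where the other 4 males lay between 148 and 174. On the authors' normalized values that library stood at 3988 for Nefm, and the other 4 lay between 2950 and 3457. The flags were not sought on those values. The first flag widens the female difference of Nefl and the second narrows the male one. The Nefl interaction was 0.38 (edgeR adjusted p = 0.162) without 5xFAD female 2 and 0.50 (edgeR adjusted p = 0.0509) without 5xFAD male 6.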

How the results depend on the processing

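The count of the 10 genes called was 0 in all 6 comparisons under every setting run, leaving out any library included, with 1 exception: DESeq2 called 1 of 10 for the interaction (Nefl, adjusted p = 0.0244), and the cause was not tested. The Nefl interaction ranged from 0.30 with the noncoding covariate (edgeR adjusted p = 0.992) to 0.50 with the authors' scaling as offsets (edgeR adjusted p = 0.118), and was 0.31 with library size only, where the median of all genes moved to -0.15. Leaving out 1 library gave 0.38 to 0.50, with edgeR adjusted p from 0.0509 to 0.173. Of 620 log2 values under other settings 57 had the other sign, and of 1140 with 1 library left out 105 had it. In 0 of these was the reported value larger than its SE, and only beyond that SE was a change of sign counted as a reversal. Same-numbered animals of the 2 genotypes did not deviate together (r = -0.203 to 0.119, over 0.1 in 2 of 9 pairs), so the numbers were not taken as pairs; with the replicate block 0 of 10 genes and 0 of all genes were called for genotype and the interaction, and the ratios were, as log2 genotype differences, -0.03 for Nefm to Nefl, 0.04 for Nefh to Nefl, 0.06 for Ina to Nefl and -0.09 for Map1b to Map2. With the authors' normalized values the Nefm to Nefl ratio was -0.04, the Nefh to Nefl ratio 0.02, the Ina to Nefl ratio 0.04 and the Map1b to Map2 ratio -0.11. Counts over all genes depended on the fit and on single libraries. DESeq2 called 107 for genotype over both sexes, 1810 in females, 19 in males, 766 for the interaction, 16 for sex in 5xFAD and 510 for sex in the knock-in, against 4, 1013, 0, 56, 7 and 9 with edgeR. For genotype over both sexes, library size only and the authors' offsets each gave 1, and the noncoding covariate 2. In females the noncoding covariate gave 0 and only the groups compared 1603. For the interaction library size only gave 402, and limma-voom, DESeq2's size factors, the authors' offsets, no filter, the noncoding covariate and the GC term gave 0 each. In males library size only gave 1 and the GC term 2, and for sex in the knock-in the authors' offsets gave 14. Leaving out 1 library gave 0 to 1334 calls in females, with 0 without knock-in female 2 or 4, 364 without 5xFAD female 1 and 439 without 5xFAD female 4. It gave 1 to 127 over both sexes (127 without 5xFAD male 10, 31 without knock-in female 1 and 19 without knock-in male 10), 0 to 489 for the interaction (489 without knock-in male 7), 0 to 2 in males, 6 to 7 for sex in 5xFAD and 8 to 340 for sex in the knock-in.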
